A study of Saccharomyces cerevisiae with 5 samples.

Results

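Copper metallothioneins and the tandem CUP1 repeat of budding yeast were examined in cells exposed to copper sulfate. The genes were chosen by name: CUP1-1 (YHR053C), CUP1-2 (YHR055C), CRS5 (YOR031W) and YHR054C, the other reading frame of the repeat. All 4 were found, each on 1 probe, among 5379 genes with a probe, and all 4 were among the 4824 genes with a value on all 3 arrays. Cells were Saccharomyces cerevisiae S288C, a laboratory strain, treated with 10 mM copper(II) sulfate pentahydrate for 2 h in rich YPD medium at 25 °C. Their comparison cells, of the same strain and medium, grew for 2 h without copper. Treated cDNA carried Cy5 and untreated cDNA carried Cy3 on each of the 3 arrays, so that a dye bias of a single probe cannot be told apart from the effect of copper.

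Metallothioneins are small, cysteine-rich proteins that bind copper ions and so keep free copper low. In yeast the main one is encoded by CUP1, which laboratory strains carry in tandem copies whose number differs between strains, and a further one by CRS5. The transcription factor Cup2, also called Ace1, binds copper and then activates CUP1, CRS5 and the superoxide dismutase gene SOD1. High copper also inactivates Mac1, the activator of the copper uptake genes.

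The measurement was a log2 ratio of copper-treated over untreated signal for each spot. The table does not state that direction, which is likely because the labels name the treated channel before the control. Replicate 1 had a single scan, replicate 2 a high- and a low-power scan, which were averaged, and replicate 3 a high-power scan, its low-power scan having been set aside by the submitters. The 5 scans held values for 41.3% to 86.1% of 6912 spots. The number of arrays limits the precision. The labels call the arrays independent biological samples without describing the cultures behind each channel. A p-value here therefore reflects only variation between these arrays, and for a single gene it draws also on the variance of all genes. Across tested genes the SD of the log2 ratio was 0.58, 0.66 and 0.48 on replicates 1, 2 and 3. A ratio of RNA pools does not separate more transcript in every cell from more cells making it.

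All 4 genes were above 0 on all 3 arrays, as were 27.3% of tested genes, and each rose in the test over all genes. In that test, limma with Benjamini-Hochberg adjustment over 4824 genes, 11.5% of genes rose at an adjusted p under 0.05. Short genes, among them the metallothionein genes, rose more often. Of the 487 shortest tested genes, with at most 504 bases, 148 rose and 27 fell. A log2 ratio of at least 1 on every array was held by 59 genes (1.22%), and all 4 were among them. The CUP1 genes had the highest and next highest mean of all tested genes, CRS5 stood at position 4 and YHR054C at position 11, counted from the highest. Were the ratio to run the other way, these positions would count from the lowest mean and every rise would be a fall. Against a minimum of 2-fold in place of 0, CUP1-1 was the 1 gene of the 4 that passed (adjusted p = 0.0311), and 0.145% of tested genes rose by that test.

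CUP1-1 encodes the main copper metallothionein. Its log2 ratio was 5.41 on replicate 1, 5.002 on replicate 2 and 2.57 on replicate 3, or 42.4-fold, 32.05-fold and 5.95-fold. Replicates 1 and 2 lay close together, and replicate 3 lay far below both. The mean was 4.33 ± 1.53 (SD, n = 3), a 20.1-fold rise with a 95% interval of 9.63-fold to 41.8-fold from limma (adjusted p = 0.00167). That interval draws on the variance of all genes, with a standard error of 0.46, and is narrower than these 3 arrays alone would give. Replicates 1 and 3 lay outside it.

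CUP1-2 is a near-identical copy of the same gene. It read 5.14, 5.78 and 1.83 on replicates 1, 2 and 3, or 35.2-fold, 54.9-fold and 3.56-fold. Replicate 3 was again the lowest, and here replicate 2 was the highest. The mean of 4.25 ± 2.12 (SD, n = 3) was a 19.0-fold rise, with a 95% interval of 7.04-fold to 51.3-fold (limma, adjusted p = 0.0042). Its mean was 5.46 without replicate 3 and 3.48 without replicate 2, and a robust estimate of the variance ended its call (adjusted p = 0.0667). The SD of CUP1-2 was the third highest of all 4824 tested genes, against a median SD of 0.25. Its limma interval draws on the variance of all genes, with a standard error of 0.62, and is narrower than these 3 arrays alone would give.

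CRS5 encodes the further metallothionein. It read 3.33, 3.84 and 1.82 on replicates 1, 2 and 3, or 10.1-fold, 14.3-fold and 3.54-fold, the same order of arrays as for CUP1-2. The mean was 3.00 ± 1.05 (SD, n = 3), an 8.00-fold rise with a 95% interval of 4.71-fold to 13.6-fold (limma, adjusted p = 0.00167), and it was 3.59 without replicate 3. The limma interval of CRS5 is also narrower than these 3 arrays alone would give, and replicates 2 and 3 lay outside it. The R64 gene table of strain S288C lists CRS5 as a pseudogene, so the ratio is that of a transcript and says nothing of a protein.

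YHR054C lies between the CUP1 copies and its product has no assigned function. It read 2.30, 1.94 and 1.61 on replicates 1, 2 and 3, or 4.92-fold, 3.84-fold and 3.05-fold. These values lay much closer together than those of the metallothioneins. The mean of 1.95 ± 0.34 (SD, n = 3) was a 3.86-fold rise, with a 95% interval of 2.94-fold to 5.07-fold (limma, adjusted p = 0.00105). By limma's p-value YHR054C stood at position 13 of 4824 genes, ahead of CUP1-1 at 34, CRS5 at 45 and CUP1-2 at 144.

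**Figure D1:**
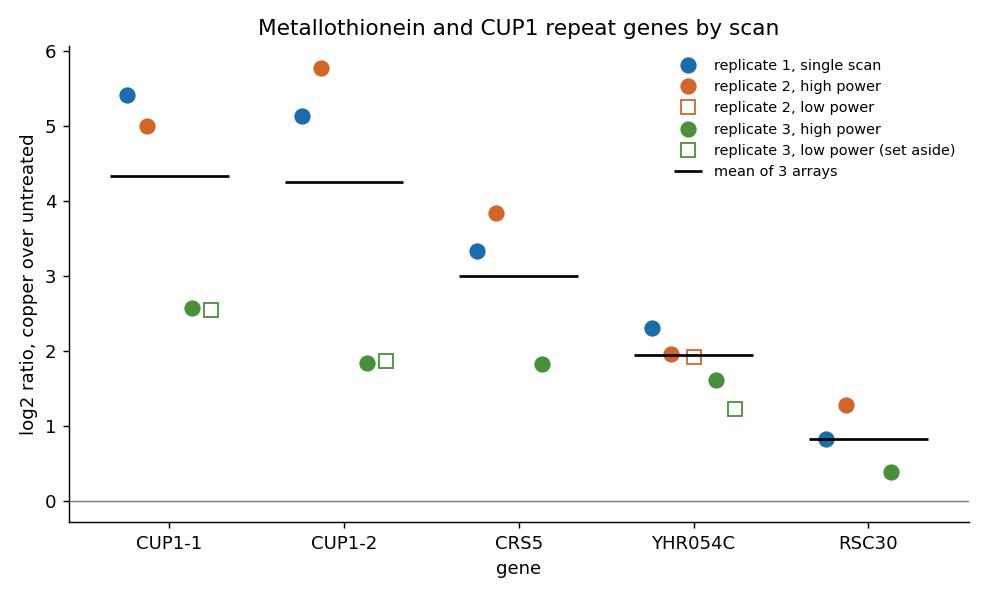
Log2 ratio of copper-treated over untreated cells (vertical axis) for 4 genes and RSC30, with a point per scan and a bar at the mean of 3 arrays. For CUP1-1, CUP1-2 and CRS5 replicate 3 (1.82 to 2.57) lies well below replicates 1 and 2 (3.33 to 5.78), whereas the arrays of YHR054C lie between 1.61 and 2.30.

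The metallothionein probes also stood near the top of each single scan that held a value for them. CUP1-1 was the second highest of 5019 genes with a value on replicate 1. It held the same place among 4904 genes on replicate 2 at high power, and among 5343 and 4101 genes on replicate 3 at high and low power. CUP1-2 had position 3 on replicate 1, position 1 on replicate 2 at high power, and positions 5 and 6 on replicate 3 at high and low power. CRS5 had positions 5, 5 and 6 on the 3 scans that held it. The ranks therefore moved little between arrays although the ratios did. YHR054C had position 12 on replicate 1, positions 27 and 5 on replicate 2 at high and low power, and positions 15 and 37 on replicate 3.

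The probes named for the CUP1 copies gave similar mean ratios but differed on single arrays. CUP1-1 minus CUP1-2 was 0.27, -0.78 and 0.74 on replicates 1, 2 and 3, with no common sign. The mean difference was 0.08 ± 0.78 (SD, n = 3), with a 95% interval of -1.85 to 2.01 and p = 1 in an exact two-sided sign-flip permutation test. The interval is wide and does not show that both copies respond alike. Because the copies are near-identical, each probe may have measured transcripts of both, and the probes are not independent measurements. The test therefore compares 2 probes and cannot decide whether the copies differ.

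The mean CUP1 ratio lay above CRS5, and CRS5 above YHR054C, on every array, but the order on replicate 3 was close. There CUP1-2 read 1.830, CRS5 1.823 and YHR054C 1.61, and after a correction for coding length CUP1-2 (1.52) and CRS5 (1.55) lay below YHR054C (1.62). The mean CUP1 ratio minus that of CRS5 was 1.94, 1.55 and 0.38 on replicates 1, 2 and 3, a mean of 1.29 ± 0.81 (SD, n = 3; 95% interval -0.73 to 3.30). CRS5 minus YHR054C was 1.04, 1.90 and 0.21, a mean of 1.05 ± 0.84 (95% interval -1.05 to 3.15). That mean was 0.63 without replicate 2 and 0.42 with the length correction. Between the mean CUP1 ratio and YHR054C, in the same repeat, the difference was 2.97, 3.45 and 0.59, a mean of 2.34 ± 1.53 (95% interval -1.47 to 6.14). All gaps were narrowest on replicate 3. Each of these 3 differences had p = 0.25 in the exact sign-flip permutation test, the smallest that 3 arrays allow, and an adjusted p of 0.333 over the 4 differences compared.

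RSC30 (YHR056C), which encodes a subunit of the RSC chromatin remodelling complex, borders the repeat. In the R64 gene table YHR054C lies from CUP1-1 as RSC30 lies from CUP1-2, and YHR054C is regarded as a partial copy of RSC30, so that the probes may share transcripts. RSC30 read 0.82, 1.27 and 0.38 on replicates 1, 2 and 3, below YHR054C on every array. Its mean was 0.82 ± 0.44 (SD, n = 3), a 1.77-fold rise (limma, adjusted p = 0.0205). That call was lost without replicate 2 (mean 0.60, adjusted p = 0.0736). RSC3, a paralogue of RSC30 elsewhere in the genome, read -0.14, -0.27 and 0.72 and did not pass the test (adjusted p = 0.745).

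Ratios outside the repeat were lower than those inside it. On the side of CUP1-1, the nearest 3 genes with a probe did not pass the test. CIC1, a ribosome assembly factor gene, averaged -0.44 ± 0.51, COX6, a cytochrome oxidase subunit gene, 0.20 ± 0.12, and SMF2, a manganese transporter gene, -0.09 ± 0.095. CIC1 passed without replicate 3, downward (mean -0.69, limma adjusted p = 0.0306). On the side of CUP1-2, RSC30 was followed by CPR2, a cyclophilin gene, at 0.59 ± 0.29 (limma, adjusted p = 0.0361), and MED6, a Mediator subunit gene, at 0.27 ± 0.38 (adjusted p = 0.292). CPR2 read 0.75, 0.77 and 0.25, and its call was lost in 6 of 16 alternatives, among them without replicate 1 (adjusted p = 0.204) and without replicate 2 (0.122). In all, 2 of 6 neighbours rose and 0 fell, beside 11.5% and 12.0% of all tested genes, and their median was 0.23 beside -0.04 over all tested genes.

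CRS5 lies on another chromosome. Of its 6 neighbours with a probe, 0 rose and 3 fell, beside 12.0% of all tested genes that fell, with a median of -0.43. CIN5, a transcription factor gene of the Yap family, read -0.77, -1.73 and -1.36 (mean -1.29 ± 0.48, limma adjusted p = 0.00504). STI1, an Hsp90 co-chaperone gene, averaged -0.75 ± 0.56 (adjusted p = 0.0385) and EXO1, an exonuclease gene, -0.49 ± 0.12 (adjusted p = 0.0436). The call of STI1 was lost in 4 of 16 alternatives, among them without replicate 1 (adjusted p = 0.154) and without replicate 2 (0.127). That of EXO1 was lost in 9 of 15, among them without any 1 of the arrays (adjusted p = 0.0838 to 0.161). DFG16, the gene just before CRS5 among those with a probe, averaged -0.37 ± 0.27, and HMS1, just after it, -0.16 ± 0.26.

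**Figure D2:**
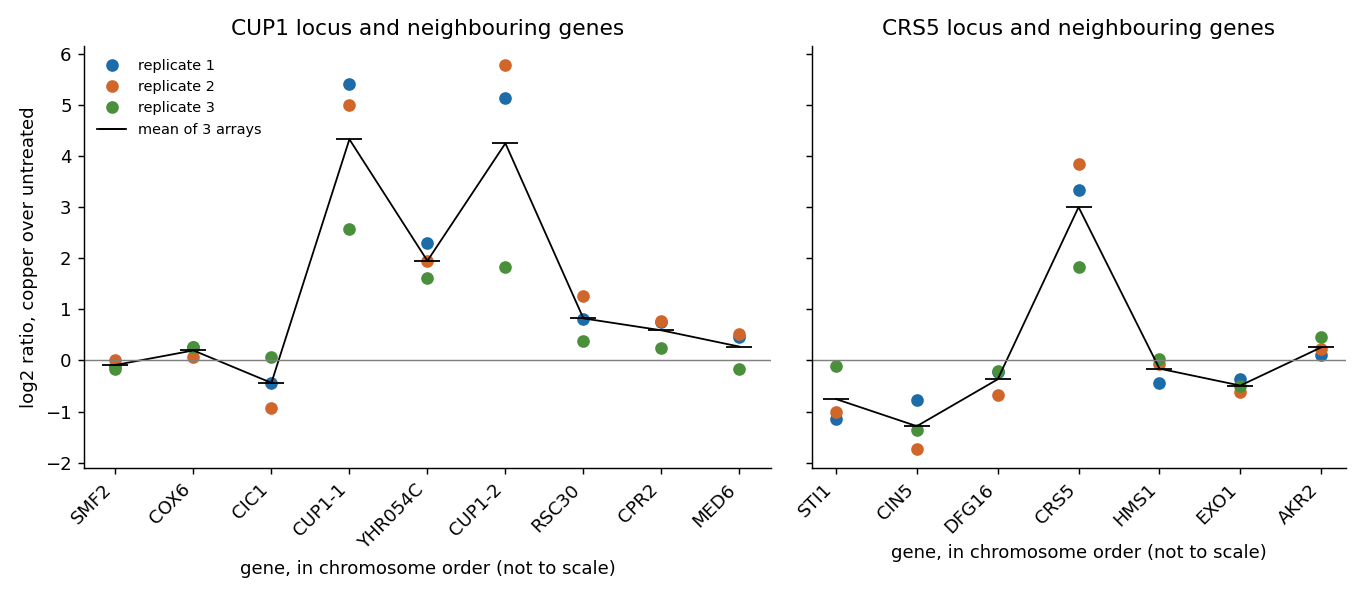
Log2 ratio of copper-treated over untreated cells (vertical axis) for genes in chromosome order, not to scale, around the CUP1 locus (left) and CRS5 (right), with a point per array and a bar at the mean. Means reach 4.33, 1.95 and 4.25 for CUP1-1, YHR054C and CUP1-2 and 3.00 for CRS5, and lie between -1.29 and 0.82 for all neighbours shown.

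The gene table also lists the noncoding RNAs RUF5-1 and RUF5-2 and the small reading frames YHR052C-B and YHR054C-B at the CUP1 copies. No probe is named for these. Whether the CUP1 probes separate strands is not given in the sources used here, so the signal of an overlapping transcript cannot be told apart from that of CUP1.

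Of 4 listed targets of Cup2, the 3 tested were CUP1-1, CUP1-2 and CRS5, described above (median 4.25; 11.5% of all tested genes rose). The fourth, SOD1, which encodes the copper and zinc superoxide dismutase, read 1.05 on replicate 1 and 1.38 on replicate 2, and had no value on replicate 3 at high power. The low-power scan of that array, which the submitters set aside, held 1.68. With that scan used, SOD1 averaged 1.37 ± 0.31 (SD, n = 3; limma, adjusted p = 0.00257), a mean below those of CRS5 and YHR054C. On that scan alone SOD1 lay above YHR054C, which read 1.22. Without the scan, in a fit of genes with values on at least 2 arrays, SOD1 averaged 1.22 ± 0.23 (SD, n = 2; limma, adjusted p = 0.0128). CUP2, the gene of the activator itself, read 0.05, 0.19 and -0.08 and did not pass the test (mean 0.05 ± 0.14, 95% interval -0.28 to 0.39, adjusted p = 0.814).

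Among the other regulators, HAA1, a paralogue of CUP2, read -1.01, -0.65 and -0.58 and fell (mean -0.75 ± 0.23, limma adjusted p = 0.0163), a call lost without replicate 1 (adjusted p = 0.113). MAC1 read -0.07, -0.81 and -0.31 and did not pass the test (adjusted p = 0.132). Both copper uptake genes of the list, CTR1 and FRE1, fell, as did 12.0% of all tested genes. CTR1, the high-affinity transporter gene, read -3.86, -3.47 and -2.06 (limma, adjusted p = 0.00152). FRE1, the surface reductase gene, read -3.98, -3.90 and -3.32 (adjusted p = 9.45e-05).

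The distance between replicate 3 and the other arrays was examined after the values were seen, and is given as a description. The mean of replicates 1 and 2 minus replicate 3 was 3.63 for CUP1-2, the highest of 4824 genes, or 12.4-fold. It was 2.63 for CUP1-1, at position 3, and 1.77 for CRS5, at position 8. For YHR054C it was 0.51, at position 415. The median over all genes was -0.04, with an SD of 0.43.

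Most other genes with high ratios were also lower on replicate 3. Of 128 other genes with a mean log2 ratio of at least 1, 105 were lower there, and the median distance was 0.32. PCL1, a cyclin gene, had a distance of 0.85, above that of YHR054C. MET17, the homocysteine synthase gene and the third highest mean, had a distance of 0.37, and MUP1, a methionine permease gene, 0.05. Among copper uptake genes CTR1 was nearer to 0 on replicate 3, by 1.61, and FRE1 by 0.62. Scaling the arrays to a common median absolute value left means of 4.25, 4.08, 2.92 and 1.95 for CUP1-1, CUP1-2, CRS5 and YHR054C. Those means do not show how far replicate 3 lay from the other arrays after scaling. The table holds no intensities, so the part of signal level in the distances above was not tested.

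**Figure D3:**
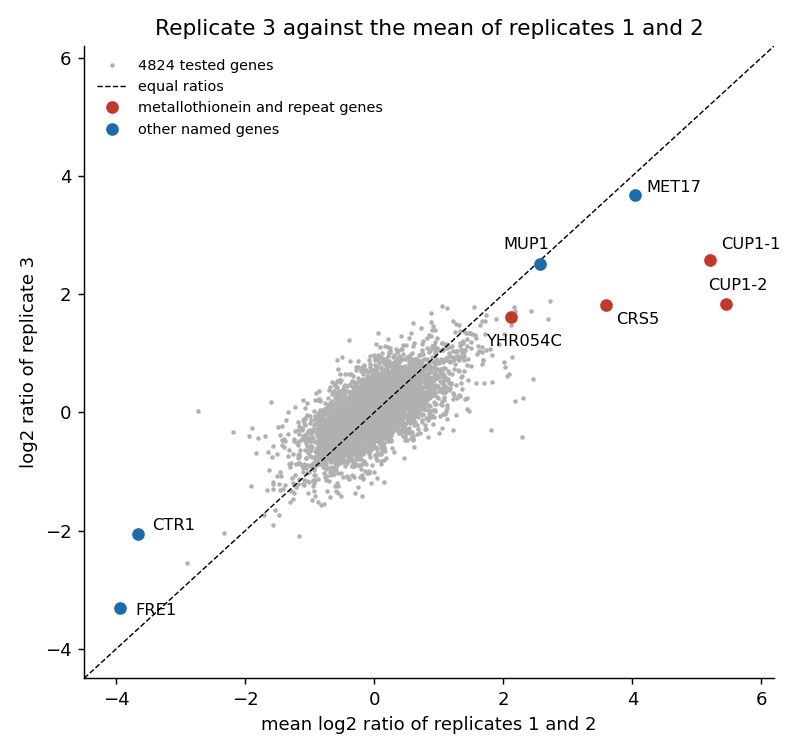
Log2 ratio of replicate 3 (vertical axis) against the mean of replicates 1 and 2 (horizontal axis) for 4824 tested genes, with a dashed line of equal ratios. CUP1-1, CUP1-2 and CRS5 lie 1.77 to 3.63 below the line, YHR054C lies 0.51 below it, and MET17 and MUP1 lie 0.37 and 0.05 below it.

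The scans of 1 array gave nearly the same ratios where both held a value, except for YHR054C on replicate 3. On replicate 3 the high- and low-power scans gave 2.57 and 2.54 for CUP1-1 and 1.83 and 1.86 for CUP1-2, so that the low values of that array were present on both. YHR054C gave 1.96 at high and 1.92 at low power on replicate 2, and 1.61 at high and 1.22 at low power on replicate 3. The last distance, 0.39, was above the median of absolute differences between those scans, 0.15, and within their 95th percentile, 0.47. The low-power scan of replicate 2 held no value for CUP1-1, CUP1-2 and CRS5, as for 49.2% of all genes, and that of replicate 3 held none for CRS5, as for 23.8%.

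Coding length moved with the ratios, and the metallothionein genes are very short. CUP1-1 and CUP1-2 have 186 bases, CRS5 210 and YHR054C 1065. Length here is that listed in the gene table. It was a multiple of 3 for 97.1% of genes with a probe, so it may not be coding sequence alone for all genes. Of the 487 shortest tested genes, with at most 504 bases, 148 rose by limma, beside 11.5% of all tested genes. The 29 tested genes no longer than CRS5 had a median log2 ratio of 0.88 and a lowest mean of 0.15, and most of them rose. The metallothionein genes were the top 3 of these, and the next was ATP18, an ATP synthase subunit gene, at 1.63. A rise by itself therefore does not set the metallothionein genes apart from genes of their length, whereas the size of the ratio does. A loess correction for length took 0.88, 0.80 and 0.31 from the CUP1 ratios on replicates 1, 2 and 3 and changed those of YHR054C by at most 0.07. After it CUP1-1 averaged 3.66 ± 1.23, CUP1-2 3.58 ± 1.83, CRS5 2.41 ± 0.80 and YHR054C 2.00 ± 0.37 (SD, n = 3). All 4 stayed past the threshold, and replicate 3 was still the lowest array for each.

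**Figure D4:**
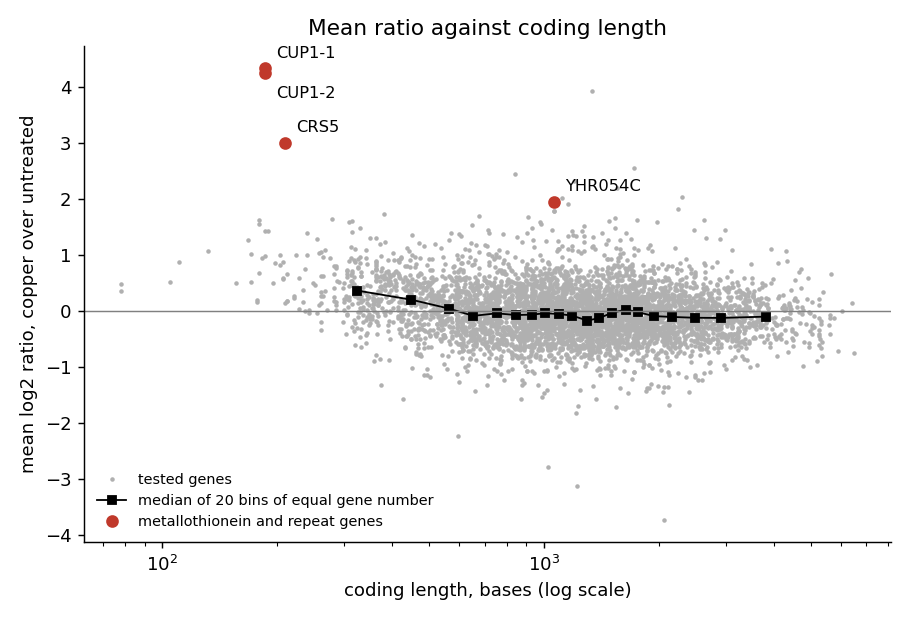
Mean log2 ratio over 3 arrays (vertical axis) against coding length in bases (horizontal log axis) for tested genes, with the median of 20 bins of equal gene number. The metallothionein genes, at 186 and 210 bases, lie at 3.00 to 4.33, above the other short genes, of which ATP18 is highest at 1.63.

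Genes with the most similar values were sought by Euclidean distance over the log2 ratios of 3 arrays. The genes closest to the CUP1 mean were MET17, at a distance of 2.48, CRS5, at 2.51, and then PCL1, OYE3 and MUP1, at 3.70 to 3.92. CRS5 lay closest to PCL1, whose cyclin acts with the Pho85 kinase (1.24), and OYE3, an NADPH oxidoreductase gene (1.29), followed by MUP1, the phosphoglycerodiester permease gene GIT1 and MET6, the methionine synthase gene. YHR054C had closer company. The uncharacterised gene YPR078C lay at 0.29, with 2.17, 2.19 and 1.71 on replicates 1, 2 and 3. YOX1 and YHP1, which encode related homeobox repressors of cell-cycle genes, lay at 0.34 and 0.58, and MET6 and GIT1 at 0.50 and 0.61. Distances rest on 3 arrays and mainly reflect the size of the ratio.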

How the data were processed

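The deposited table held log2 ratios per spot and scan, which the authors normalized by LOWESS over spots with a flag value of 0, per the labels. Their base is read from the minimum of the table, -6.64, the log2 of 0.01. Column medians lay between -0.025 and -0.0017, so the columns are centred. The direction of the ratio is not stated. The scanner, the image software and any background correction were not given in the sources used here. The platform annotation gave 5446 of 6912 probes 1 gene symbol, several symbols to 0 and none to 1466, and all 5446 gene identifiers were in the yeast gene table (R64), from which names, coding length and gene order were taken. The array's genome build is not named, so no coordinates are given, and no sequences were used here.

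Probes of a gene were averaged. The mean of 3 arrays was tested against 0, two-sided, in limma 3.58.1 (R 4.3.3; functions lmFit and eBayes) over the 4824 genes with a value on all 3 arrays, and p-values were adjusted by Benjamini-Hochberg, with calls at an adjusted p under 0.05. The 555 genes without a value on all 3 arrays were not tested. Differences between genes were tested by an exact sign-flip permutation of arrays in Python 3.11.15, with 95% intervals from the t distribution. Intervals of single genes are from limma, which draws on the variance of all genes, so their widths are not comparable with those of differences. Named genes are the 4 chosen, the listed copper genes and relatives of the repeat, the 3 nearest genes with a probe on either side, and the 5 closest genes by distance. ATP18, COX9, ATP15, DDR2, COX17, IRC7 and REE1 were named after their values were seen. The genes, lists and alternatives were chosen with earlier results of these data known, and 1 alternative, centring by spot group, was added after seeing the data. Alternatives changed the scans used, centring, scaling, filter, variance estimate, minimum fold, probe averaging and coding length, or left out an array.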

Additional observations from a re-analysis of the deposited data

How the results depend on the processing

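CUP1-1 stayed past the threshold in all 15 alternatives that gave it a value, with means from 3.66 to 5.20 and adjusted p up to 0.0311. With a 2-fold minimum the means of CUP1-2 (4.25, adjusted p = 0.128), CRS5 (3.00, adjusted p = 0.0597) and YHR054C (1.95, adjusted p = 0.0963) no longer passed, and 11 genes did in all, 7 of them upward, against 1134 as reported. A robust variance estimate also ended the call of CUP1-2 (4.25, adjusted p = 0.0667, in a range over 15 alternatives from 7.65e-42). That lowest value comes from the fit without replicate 1, in which limma pooled the variance of all genes into 1 value. With 1 array left out, means ran from 3.79 to 5.20 for CUP1-1, 3.48 to 5.46 for CUP1-2, 2.58 to 3.59 for CRS5 and 1.77 to 2.12 for YHR054C, and from 494 to 1211 genes passed (578 without replicate 1, 494 without replicate 2). CUP1-1 minus CUP1-2 ran from -0.25 to 0.51 and changed sign, at -0.02 without replicate 1 and -0.25 without replicate 3. The other 3 differences kept their sign in all 7 alternatives. The mean CUP1 ratio minus CRS5 ran from 0.96 to 1.74, and minus YHR054C from 1.63 to 3.21. CRS5 minus YHR054C ran from 0.42, with the length correction, to 1.47. With array 2 read at low power only, CUP1-1, CUP1-2 and CRS5 had no value to test, and 349 of 2686 tested genes fell, against 578 of 4824. Each array pairs treated with untreated cDNA, so the test of ratios is already paired. Without intensities, signal over background could not be assessed.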

Other observations

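Of 4824 genes, 11 passed limma's test against a 2-fold minimum. CUP1-1 (adjusted p = 0.0311) was the 1 gene of the repeat among them, beside MET17, MUP1, PCL1, GIT1, MET6 and YPR078C upward and FRE1, CTR1, IRC7 and REE1 downward. Among the genes no longer than CRS5, those after the metallothioneins were ATP18, COX9 (1.55) and ATP15 (1.43), which encode respiratory chain and ATP synthase subunits, and DDR2 (1.42), a stress-response gene. COX17, a copper chaperone gene of the same length as CRS5, had the lowest mean of these 29, at 0.15 (adjusted p = 0.629).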
